A study of Mus musculus with 12 samples.

Results

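Members of the Lin28 and let-7 axis were followed through the exit of mouse embryonic stem cells (ESCs) from naive pluripotency: the RNA-binding proteins Lin28a and Lin28b, the chromatin proteins Hmga1 and Hmga2, the RNA-binding proteins Igf2bp1, Igf2bp2 and Igf2bp3, the RNA-binding ubiquitin ligase Trim71, the uridylyl transferase Zcchc11 (named Tut4 in the annotation used here) and the exonuclease Dis3l2. They were named as a list, with earlier results of these data known, and were found by matching the gene identifiers of the deposited table to GENCODE symbols. All 10 of 10 were among the 51467 genes of the table, and all 10 were among the 14731 genes kept for testing, which reached 3 CPM, a count scaled to the total reads of its library, in 3 or more libraries.

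The study compared ESCs with epiblast-like cells (EpiLCs), the formative state they pass into, in 4 groups of 3 libraries. ESCs were held in serum medium with LIF and the 2i inhibitors (PD0325901 against MEK and CHIR99021 against GSK3), and the EpiLC harvest followed the removal of both by about 56 h. All cells, of both types, received 500 µM 4-thiouridine (4sU) for 30 min before lysis. The extracted RNA was then divided, 1 share giving a library of biotin-captured, newly made transcripts (4sU RNA) and the other a library of total RNA depleted of ribosomal RNA. The labels give neither strain nor genotype. By the study's methods the differentiation used 1 line, V6.5 ESCs that carry a miR-290 mCherry and a miR-302 GFP reporter, in both cell types. The study's text speaks of biological replicates, and the labels do not say whether the 3 libraries of a group came from separate cultures. The p-values therefore measure the spread between these libraries.

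LIN28 proteins bind precursors of the let-7 microRNAs and keep them from being matured. LIN28A recruits uridylyl transferases such as ZCCHC11, which add uridines to the end of the precursor, and DIS3L2 degrades the uridylated product. Mature let-7 in turn represses messenger RNAs that carry matches to its seed, among them those of Lin28, Hmga2, the Igf2bp family and Trim71, so that the axis holds a mutual inhibition known for marking early against late developmental states. Pluripotent cells are known for high LIN28 and little mature let-7.

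The cell types carried the markers of their names. All 7 naive markers examined, Klf4 and Esrrb among them, were lower in EpiLC total RNA (summed level 48.0 to 54.5 CPM of library totals, against 2383 to 2682 in ESCs), and all 5 formative markers, Fgf5 and Otx2 among them, were higher (1265 to 1544 against 133 to 146). Summed fibroblast markers, 7 genes, stayed between 6.91 and 20.0 CPM in every library, although Dcn and Col1a2 were called higher in EpiLC total RNA and Pdgfrb lower. In total RNA 1 of 3 neuroectoderm markers kept and 2 of 3 mesendoderm markers kept were called higher (Pax6 and T among them), and of 3 primitive endoderm markers kept 1 was called higher and 1 lower. The part of these cells in the values below was not tested. Fgf5, Dcn, Col1a2, Pax6 and T reached 3 CPM only in EpiLC libraries, and Pdgfrb only in ESC libraries. Their calls are therefore partly built in by the filter. Deposited reads summed to 3097693 to 5385644 in 4sU libraries and 9300845 to 21975684 in total libraries.

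ESC replicate 3 stood apart in both assays. Over the genes kept, its counts differed from those of ESC replicates 1 and 2 with a chi-square of 27.5 and 28.6 per degree of freedom in total RNA, against 2.60 between replicates 1 and 2. In 4sU RNA these values were 10.5 and 8.44, against 4.80. No pair of libraries within a group agreed within sampling noise, so all 12 were counted as separate. Because Lin28a, Lin28b, Hmga1 and Hmga2 were among the genes in which ESC replicate 3 deviated, each change of the 10 genes is also given without both of its libraries, and changes of other genes are where their call or size depended on it.

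The sequences that join these genes are the seed of let-7 and its matches. Of 11 mature 5′-arm sequences of the family in RefSeq (build GRCm38.p6), 10 shared the seed, bases 2 to 8, and let-7j alone had another. The members below are shown with the seed in capitals: let-7a-5p as the reference and let-7e-5p because its locus was called below, on few reads. Shown too are let-7g-5p and miR-98-5p, because a few reads fell on their loci, and let-7j for its different seed.
let-7a-5p: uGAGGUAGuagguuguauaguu
let-7e-5p: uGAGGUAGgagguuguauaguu
let-7g-5p: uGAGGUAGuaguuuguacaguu
miR-98-5p: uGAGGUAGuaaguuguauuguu
let-7j: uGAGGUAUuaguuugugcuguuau

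The stretch between the arms of the precursor is where LIN28 is known to bind, in part through a GGAG motif. The letters GGAG were present between the arms in 8 of the 11 family hairpins with both arms listed in RefSeq, against 58 of 644 (9.01%) of all mouse hairpins with both arms listed (1 strand searched, with the first 3 bases of the 3′ arm included). A match is a description of the letters and not a binding site. The stretches of let-7g, let-7e and let-7a-1 are shown with the motif in capitals, and let-7b as one of the 3 hairpins without it.
let-7g, between the arms: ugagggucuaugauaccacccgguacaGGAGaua
let-7e, between the arms: gaggaagacacccgaGGAGauca
let-7a-1, between the arms: uuagggucacacccaccacugGGAGauaa
let-7b, between the arms: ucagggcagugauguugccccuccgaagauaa

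In the messenger RNAs, the 7-base match to the seed, CTACCTC, was searched on the sense strand of the annotated 3′ UTR of 1 transcript a gene (the APPRIS principal transcript of GENCODE M21, mm10). It was present in 8 of the 10 genes, with 21 matches in all. The list includes genes chosen as known let-7 targets, so more matches than in other genes were built into it. Of the 12154 protein-coding genes kept that had a 3′ UTR, 9.93% held at least 1. For 6 of the 10 genes the 3′ UTR is 2119 to 6337 bases long, against a median of 1068 over these genes, and among the 3126 genes with a 3′ UTR of 2000 to 6500 bases the share was 19.3%. Lin28b, Hmga2, Igf2bp1 and Trim71 each had 4 matches, a number that 99.9% of genes did not reach, and Lin28a had 2. Hmga1, Igf2bp2 and Igf2bp3 had 1 match each, and Zcchc11 and Dis3l2, the enzymes of precursor decay, had none in 3′ UTRs of 630 and 347 bases. Per kb of 3′ UTR, Hmga2 had the densest matches at 1.34, against 0.0734 over all genes. The 8-base form, in which an A follows, was present in 7 of the 10 genes, Hmga1 being the one that dropped out, and in 3.48% of all genes. All 4 matches of Trim71 were of that form.

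**Figure D1:**
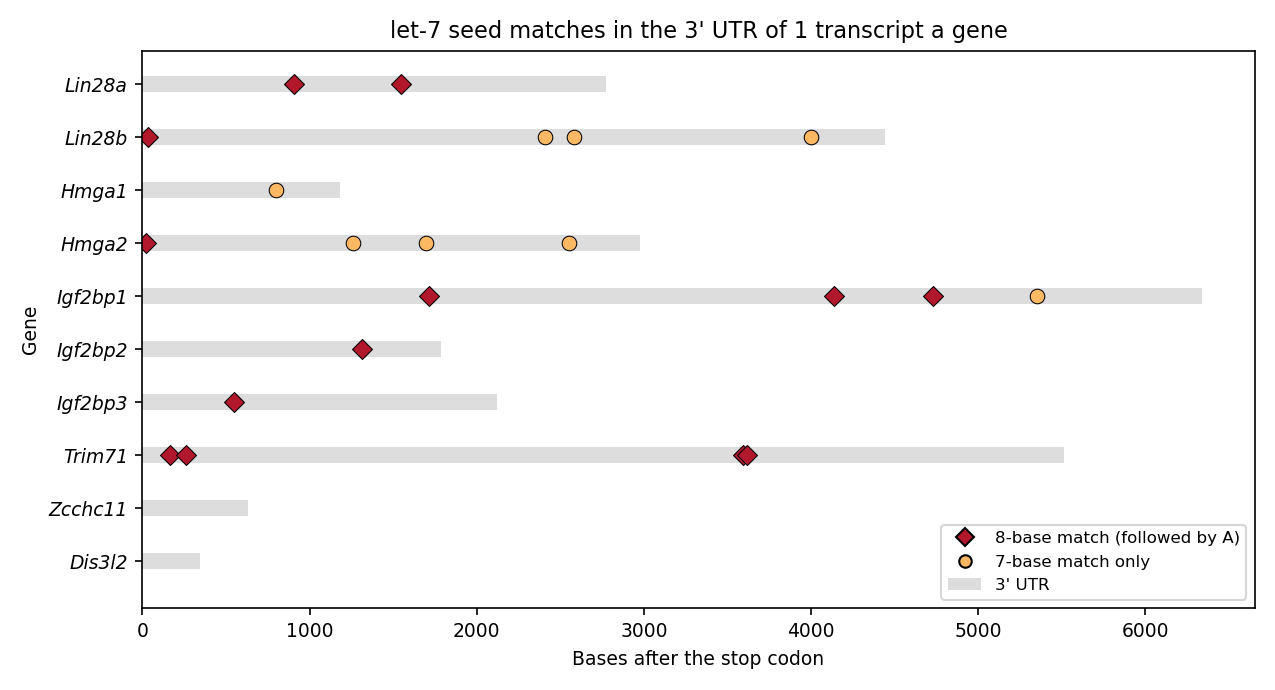
Position of each let-7 seed match along the 3′ UTR of 1 transcript a gene, in bases after the stop codon; grey bars show the length of the 3′ UTR, red diamonds 8-base matches and orange circles matches of 7 bases only. Matches lie in 8 of the 10 genes, with 4 each in Lin28b, Hmga2, Igf2bp1 and Trim71 and none in Zcchc11 and Dis3l2.

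The 8-base sites of the 3 genes called changed below and the closely spaced pair of Trim71 are printed with 15 bases before and 1 base after, the 7-base match in capitals.
Lin28a, the first site: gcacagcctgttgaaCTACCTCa
Lin28a, the second site: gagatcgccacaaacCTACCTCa
Lin28b, the first site: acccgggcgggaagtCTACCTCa
Hmga2, the first site: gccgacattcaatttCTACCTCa
Trim71, the third site: tttagtatggattttCTACCTCa
Trim71, the fourth site: ttggcaaaaagttgtCTACCTCa

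All are exonic, in the 3′ UTR, on the minus strand of mm10. The Lin28a sites are at chr4:134005189-134005211 and chr4:134004551-134004573, and the Lin28b site is at chr10:45381022-45381044. The Hmga2 site, at chr10:120364224-120364246, begins 21 bases after the stop codon, and the Lin28b site begins 36 bases after it. The Trim71 sites, at chr9:114509047-114509069 and chr9:114509021-114509043, start 26 bases apart. Mature let-7 was not measured in these libraries, and occupancy of the sites is not known from them.

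Levels between genes were compared per kb of exonic length, as TMM-scaled CPM per kb (TMM, the trimmed mean of M values, adjusts library totals for composition). In ESC total RNA Igf2bp1 was the most abundant at 127 ± 3.42 (SD, n = 3), followed by Lin28a at 86.8 ± 42.5 and Trim71 at 75.2 ± 8.54, and the libraries of Lin28a and Trim71 overlapped. Lin28b at 8.07 ± 1.91 and Hmga2 at 2.94 ± 2.13 were the lowest. In EpiLC total RNA the order was headed by Lin28a at 275 ± 1.87, above Igf2bp1 at 175 ± 7.12 and Trim71 at 93.9 ± 2.63, and no neighbours in that order overlapped. Lin28b moved from the ninth to the fifth place, at 41.0 ± 3.03, while Hmga2 stayed last at 9.24 ± 0.47.

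In 4sU RNA of ESCs, Trim71 at 66.2 ± 9.01 and Igf2bp1 at 61.3 ± 5.63 CPM per kb headed the order and overlapped. Next to them Igf2bp2, Lin28a, Igf2bp3, Zcchc11, Hmga1 and Dis3l2 formed a chain in which each overlapped its neighbour, from 28.7 to 12.7. In 4sU RNA of EpiLCs, Lin28a at 176 ± 4.29 stood above Igf2bp1 at 88.2 ± 2.89 with no overlap. The paralogues thus kept unequal shares: per kb, Lin28a exceeded Lin28b by 13.7, 10.9 and 6.41 times in the 3 ESC total libraries and by 7.29, 6.53 and 6.39 times in the EpiLC total libraries. The ratio in ESC replicate 3 lay just within the EpiLC range, and the other 2 ESC libraries were above it.

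**Figure D2:**
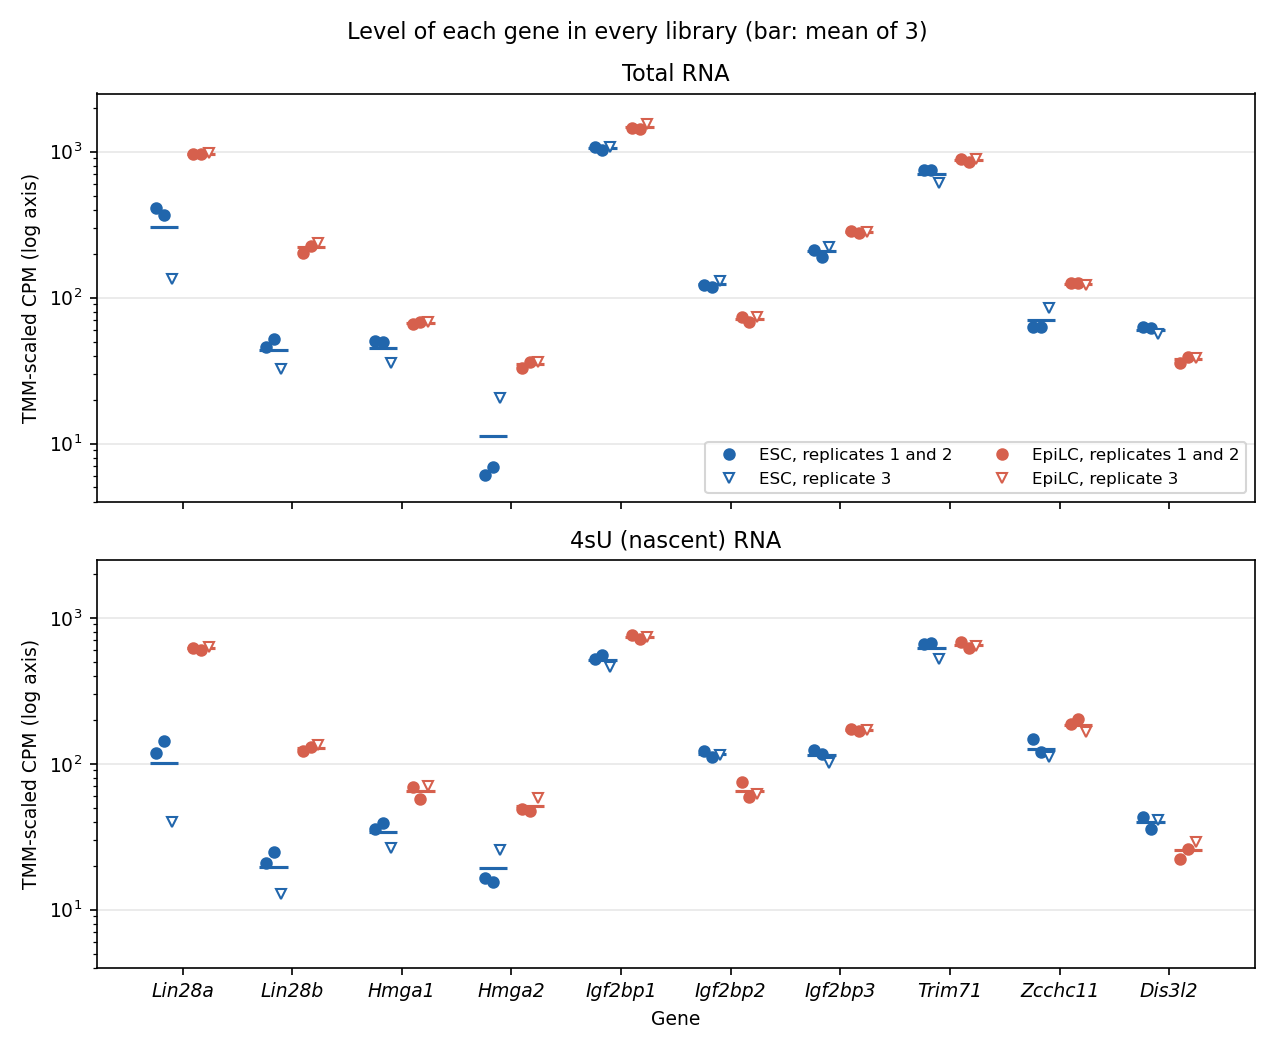
TMM-scaled CPM of each gene in every library on a log axis, total RNA above and 4sU RNA below; blue marks are ESCs, red marks EpiLCs, open triangles replicate 3, and bars the mean of 3 libraries. Lin28a, Lin28b and Hmga2 lie higher in all EpiLC libraries of both assays, Igf2bp2 and Dis3l2 lower, and ESC replicate 3 is the lowest ESC library for Lin28a and the highest for Hmga2.

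The total RNA libraries ask which of these messenger RNAs changed in amount. Of the 10 genes, 3 were called higher in EpiLCs (Benjamini-Hochberg adjusted p under 0.05 in limma-voom and an absolute log2 fold change over 1), Lin28a, Lin28b and Hmga2, and 0 were called lower. Of all genes tested, 27.6% were called, 16.3% higher and 11.2% lower. By adjusted p alone 8 of the 10 were higher and 2 lower, where 63.5% of all genes passed in either direction. All 10 also had ESC and EpiLC libraries that did not overlap, as 68.6% of all genes did. Of these members 8 were higher in EpiLCs and 2 lower, against 33.5% and 35.1% of all genes, so a shift of some size was the common state of genes in this comparison. The median log2 change was 0.52 over the 10 genes and 0.02 over all genes.

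Lin28a (chr4:134003330-134018841, minus strand) gained the most CPM of the 10 genes in total RNA. In such bulk libraries more cells with a transcript and more transcript per cell cannot be told apart. Its total RNA level was 410.4, 369 and 134 CPM in the ESC libraries, replicates 1 to 3, and 962, 961 and 973 in the EpiLC libraries. The EpiLC libraries were nearly equal and above every ESC library, of which replicate 3 was by far the lowest. The log2 change was 1.80 ± 0.35 (SE, n = 3 against 3), a 3.47-fold rise with a limma-voom adjusted p of 0.000407.

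The estimate was larger for its newly made RNA. The 4sU level of Lin28a was 118, 143 and 40.1 CPM in ESCs and 619, 600.4 and 630.2 in EpiLCs, again without overlap. That gave a nascent log2 change of 2.75 ± 0.42 and a limma-voom adjusted p of 7.75e-05. Without the libraries of ESC replicate 3 the changes were smaller, at 1.31 in total and 2.24 in 4sU RNA, and both were still called.

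Lin28b (chr10:45376620-45470201, minus strand), the paralogue with the lower level, showed the largest fold rise of the 10 genes in total RNA over all 12 libraries. Without both libraries of ESC replicate 3 the rise of Hmga2 was larger. Lin28b was at 46.1, 52.3 and 32.2 CPM in ESC total RNA and at 203, 227 and 235 in EpiLC total RNA. No library came near those of the other cell type. On the log2 scale the change was 2.35 ± 0.15, or 5.09-fold, with a limma-voom adjusted p of 5.7e-09.

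In 4sU RNA Lin28b was at 20.9, 25.0 and 12.7 CPM in ESCs, counted from 47 to 140 reads, and at 122, 129 and 134 in EpiLCs. The nascent log2 change, 2.71 ± 0.23 (limma-voom adjusted p = 3.13e-07), had an interval of 2.22 to 3.19. Without ESC replicate 3 the changes were 2.17 in total RNA and 2.48 in 4sU RNA.

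Hmga2 (chr10:120361275-120476469, minus strand), an architectural chromatin protein and a textbook let-7 target, was the third gene called. Its total RNA level was 6.08, 6.95 and 20.5 CPM in ESCs and 33.1, 36.5 and 36.0 in EpiLCs. Every EpiLC library exceeded every ESC library, but ESC replicate 3 lay closer to the EpiLC libraries than to the other ESC libraries on the log scale. Its log2 change was 2.03 ± 0.27, or 4.09-fold (limma-voom adjusted p = 1.27e-05), and 2.43 without ESC replicate 3.

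Newly made Hmga2 RNA was at 16.6, 15.6 and 25.5 CPM in ESCs and 48.8, 47.5 and 58.2 in EpiLCs. The nascent log2 change was 1.48 ± 0.32 (limma-voom adjusted p = 0.00158) and 1.66 without ESC replicate 3, both called.

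Hmga1 (chr17:27556620-27563674, plus strand), the paralogue expressed widely in dividing cells, was higher in EpiLCs but short of the fold threshold. It was at 50.4, 49.7 and 35.4 CPM in ESC total RNA and 65.6, 67.8 and 68.0 in EpiLC total RNA. The cell types did not overlap, and ESC replicate 3 was the lowest library. The log2 change was 0.57 ± 0.13 in total RNA (limma-voom adjusted p = 0.00148) and 0.92 ± 0.17 in 4sU RNA (limma-voom adjusted p = 0.000479), or 0.42 and 0.78 without ESC replicate 3.

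The values of Hmga1 are uncertain in level. Of the 50-base stretches of its transcript, 86.0% also occur in the transcript of Hmga1b, a near copy on chromosome 11, and reads that fit both places were dropped by the unique alignment. Hmga1b itself held 21 to 416 reads a library.

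The Igf2bp family binds and stabilizes messenger RNAs in the cytoplasm, and its 3 members did not move together. Igf2bp1 (chr11:95957163-96005940) and Igf2bp3 (chr6:49085223-49214957) were higher in EpiLCs and Igf2bp2 (chr16:22059009-22163299) was lower, all 3 short of the fold threshold in both assays. Igf2bp1 was at 1082, 1028 and 1071 CPM in ESC total RNA and at 1446, 1421 and 1534 in EpiLC total RNA. On the log2 scale the change was 0.47 ± 0.068 (limma-voom adjusted p = 2.74e-05), and the nascent change was 0.53 ± 0.076.

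Igf2bp3 was at 211, 191 and 222 CPM in ESC total RNA and at 287, 277 and 280.1 in EpiLC total RNA. The spread among the libraries of a cell type was small beside the gap between them. Its log2 change was 0.44 ± 0.077 (limma-voom adjusted p = 0.000157), with a nascent change of 0.58 ± 0.090.

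Igf2bp2 was at 122, 118 and 130.3 CPM in ESC total RNA and at 73.2, 68.1 and 73.2 in EpiLC total RNA. All EpiLC libraries were below all ESC libraries, in 4sU RNA as well, where levels were 122, 111 and 115 against 75.4, 58.9 and 62.0. The log2 change was -0.79 ± 0.084 in total RNA (limma-voom adjusted p = 1.35e-06) and -0.83 ± 0.10 in 4sU RNA (limma-voom adjusted p = 9.05e-06). The per-kb ratio of Igf2bp1 to Igf2bp2 in total RNA was 3.97 to 4.27 in ESCs and 9.53 to 10.1 in EpiLCs, while that of Igf2bp1 to Igf2bp3 was 2.65 ± 0.15 and 2.71 ± 0.12 (SD, n = 3). Without ESC replicate 3 the total RNA changes of Igf2bp1, Igf2bp2 and Igf2bp3 were 0.48, -0.75 and 0.49, and the nascent changes were 0.45, -0.84 and 0.50.

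Trim71 (chr9:114507133-114564369, minus strand), known for repressing messenger RNAs and for keeping early cells proliferating, changed the least of the 10 genes. It was at 745, 750.1 and 609 CPM in ESC total RNA and at 895, 849 and 886 in EpiLC total RNA. The groups did not overlap, and ESC replicate 3 was the lowest. On the log2 scale the change was 0.32 ± 0.096 (limma-voom adjusted p = 0.00902), and 0.23 without ESC replicate 3.

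In 4sU RNA the libraries of Trim71 overlapped, at 661, 672 and 521 CPM in ESCs and 679, 618 and 641 in EpiLCs. The nascent log2 change was 0.07 ± 0.10 with an interval of -0.16 to 0.29 and a limma-voom adjusted p of 0.61, and it was -0.05 without ESC replicate 3. Trim71 was the only one of the 10 genes whose ESC and EpiLC 4sU libraries overlapped.

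The enzymes that act on LIN28-bound precursors moved in opposite directions, both short of the fold threshold. Zcchc11 (chr4:108459426-108559421, plus strand), which adds uridines to the precursor, was at 62.4, 63.3 and 84.9 CPM in ESC total RNA and at 125, 125 and 123 in EpiLC total RNA. ESC replicate 3 was the highest ESC library and still below the EpiLC libraries. Its log2 change was 0.85 ± 0.12 in total RNA (limma-voom adjusted p = 2.39e-05) and 0.55 ± 0.13 in 4sU RNA (limma-voom adjusted p = 0.00252), or 0.98 and 0.48 without ESC replicate 3.

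Dis3l2 (chr1:86703819-87050095, plus strand), the exonuclease that degrades uridylated RNA, was at 63.1, 61.6 and 56.1 CPM in ESC total RNA and at 35.8, 39.1 and 38.3 in EpiLC total RNA. All EpiLC libraries were below all ESC libraries. The log2 change was -0.68 ± 0.091 in total RNA (limma-voom adjusted p = 1.35e-05) and -0.64 ± 0.13 in 4sU RNA (limma-voom adjusted p = 0.000963), or -0.72 and -0.63 without ESC replicate 3. Within its span the deposited table lists 9 other genes on the same strand, and reads in exons shared by 2 genes are not assigned by the counting used.

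In the 4sU comparison, which asks what changed in newly made RNA, the same 3 genes, Lin28a, Lin28b and Hmga2, were called higher and 0 were called lower, where 25.5% of all genes were called, 11.9% higher and 13.5% lower. By adjusted p alone 7 of the 10 were higher and 2 lower, against 52.5% of all genes. The 4sU libraries of 9 of the 10 did not overlap between the cell types, against 60.7% of all genes, with 7 higher in EpiLCs (26.6% of all genes) and 2 lower (34.1%). The median nascent log2 change was 0.56 over the 10 genes and -0.09 over all genes.

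**Figure D3:**
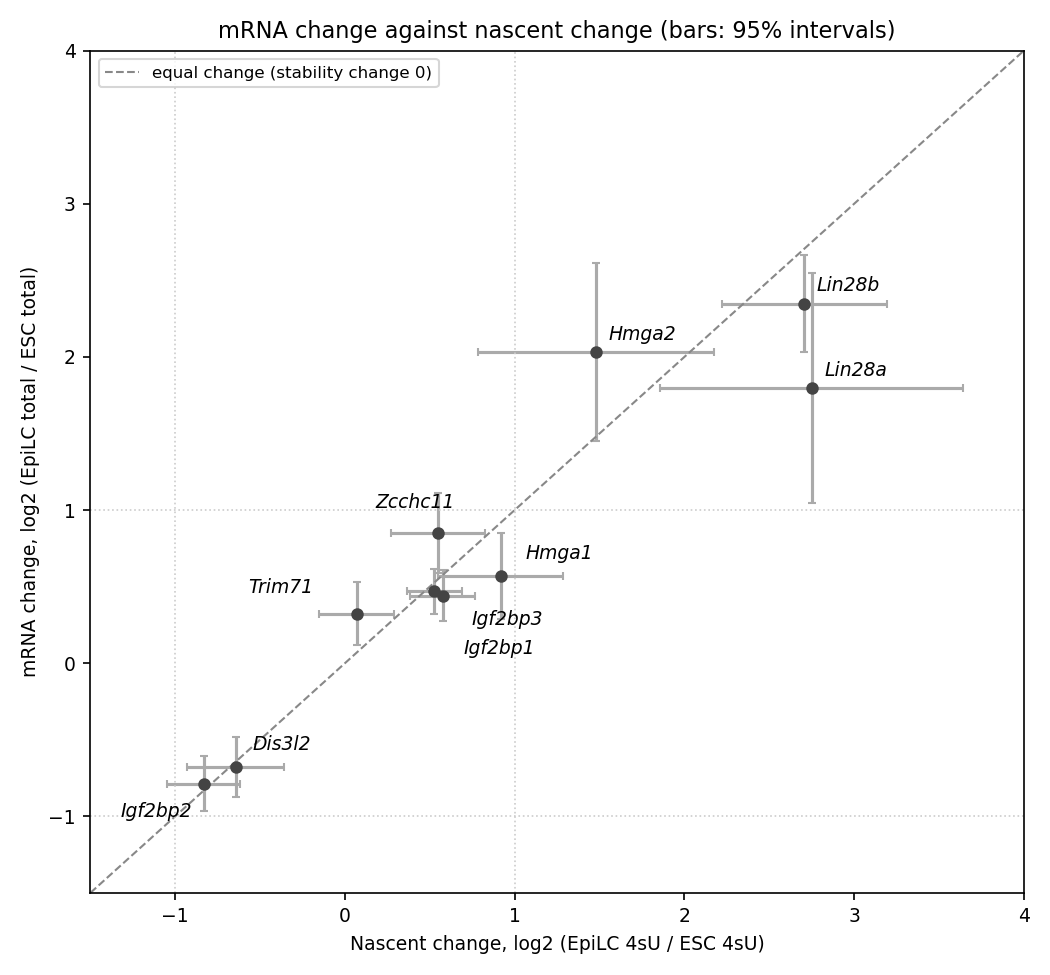
Log2 mRNA change (EpiLC total over ESC total, vertical) against log2 nascent change (EpiLC 4sU over ESC 4sU, horizontal) of each gene, with 95% intervals from limma-voom; the dashed line marks equal change and dotted lines the fold threshold. Lin28a lies below the line at 2.75 and 1.80, and Hmga2 above it at 1.48 and 2.03. The bars of Hmga2 cross the line and those of Lin28a stop short of it. The interval of the difference itself, the stability change, was -2.12 to 0.21 for Lin28a.

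Relative mRNA stability was read as log2 of total over 4sU CPM for each same-numbered pair of libraries, so a high value means much RNA for the amount newly made. The values are relative because libraries were scaled to their own composition, and most of them moved under other processing, as given below. Lin28a was among the more stable messages of ESCs, at 1.79, 1.36 and 1.74, above 89.1% of all genes kept and 87.9% of protein-coding ones. In EpiLCs it was at 0.64, 0.68 and 0.63, above 64.6% of all genes kept and 59.3% of protein-coding ones. The cell types did not overlap, and ESC replicate 3, which was low in both assays, gave a ratio between those of the other 2 pairs.

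Lin28b showed the same order with a smaller step, at 1.143, 1.06 and 1.34 in ESCs and 0.74, 0.81 and 0.80 in EpiLCs. Hmga1 was at 0.49, 0.33 and 0.41 in ESCs and -0.07, 0.25 and -0.04 in EpiLCs, also without overlap. Trim71 was the one gene with EpiLC pairs all above ESC pairs, at 0.40, 0.46 and 0.47 against 0.17, 0.16 and 0.23. Over all genes, 32.8% had pairs that did not overlap, 20.8% higher and 12% lower in EpiLCs.

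The least stable of the 10 were Hmga2 and Zcchc11, in both cell types. Hmga2 was at -1.44, -1.16 and -0.31 in ESCs, where replicate 3 stood far above the other 2, and at -0.56, -0.38 and -0.69 in EpiLCs. Zcchc11 was at -1.25, -0.94 and -0.40 in ESCs and -0.58, -0.70 and -0.43 in EpiLCs. Their ESC means were above 27.1% and 28.9% of all genes, and above 16.05% and 18.11% of protein-coding genes. Igf2bp1, Igf2bp3 and Dis3l2 had means of 1.05, 0.87 and 0.59 in ESCs and 0.99, 0.72 and 0.56 in EpiLCs, and Igf2bp2 had means of 0.09 and 0.13. For these 4 genes the pairs of the cell types overlapped.

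**Figure D4:**
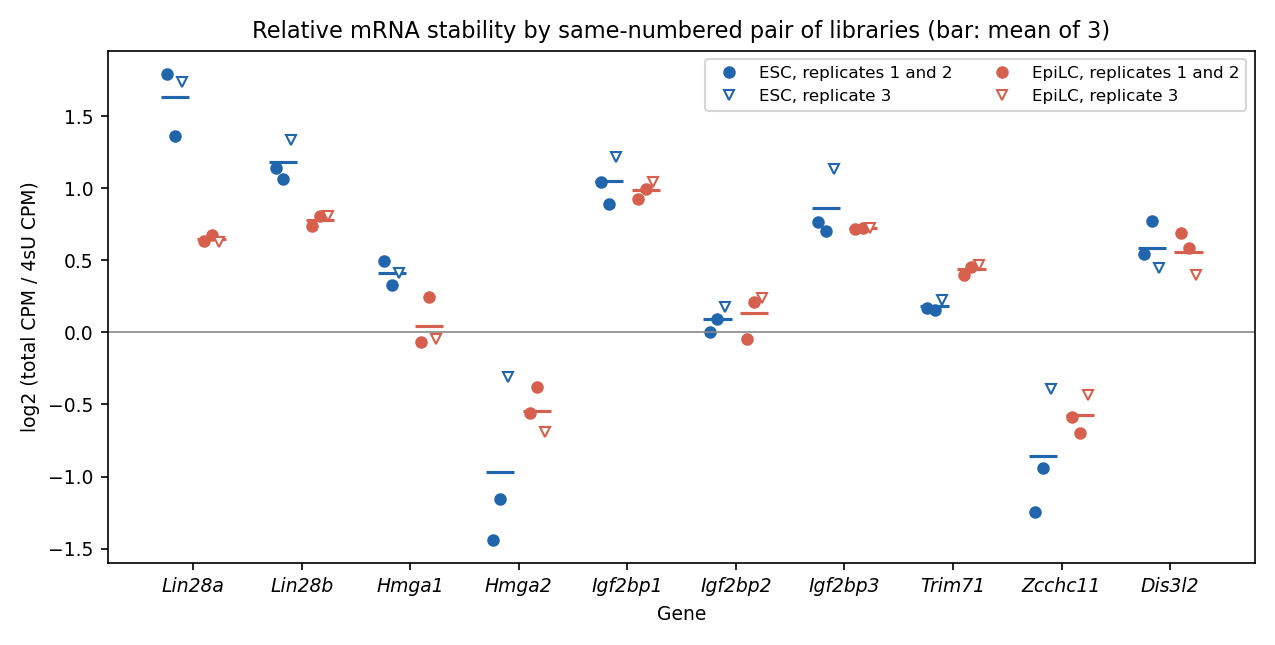
Relative mRNA stability, log2 of total over 4sU CPM, for each same-numbered pair of libraries; blue marks are ESCs, red marks EpiLCs, open triangles replicate 3 and bars the mean of 3. Lin28a has a mean of 1.63 in ESCs and 0.65 in EpiLCs, and Hmga2 and Zcchc11 lie below 0 in all pairs.

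The change in stability was tested as the interaction of cell type and assay, the mRNA change minus the nascent change. None of the 10 genes was called by limma-voom in either direction, 0 passed by adjusted p alone and 0 reached an unadjusted p under 0.05, where 1.54% of all genes were called, 1.24% higher and 0.305% lower, and 4.6% passed by adjusted p alone. edgeR's quasi-likelihood test and DESeq2 also called 0. These fits take no account of which 4sU and total libraries were made from 1 RNA sample. With a fixed replicate block by culture, chosen after seeing the data, 1 of the 10 passed by adjusted p alone, Lin28a at -0.96 (limma-voom adjusted p = 0.000595), and 0 were called. The estimate for Lin28a was -0.95 ± 0.54 with an interval of -2.12 to 0.21 and a limma-voom adjusted p of 0.322.

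The width of that interval moved with ESC replicate 3. Without both of its libraries the estimate for Lin28a was -0.92 with a limma-voom adjusted p of 5.39e-06, past the p threshold and short of the fold threshold. Without its total library alone, which leaves its low 4sU library in place, the estimate was -1.43 with an adjusted p of 0.0149 and was called. With sample quality weights, which lower the weight of libraries that deviate, it was -1.06 with an adjusted p of 0.0137 and was called as well. Without its 4sU library alone the estimate was -0.46 with an adjusted p of 0.602.

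The other estimates were smaller. Lin28b was at -0.36 (interval -0.94 to 0.22), Hmga1 at -0.35 (-0.81 to 0.12), Hmga2 at 0.55 (-0.35 to 1.46), Trim71 at 0.25 (-0.05 to 0.56) and Zcchc11 at 0.30 (-0.08 to 0.68). Igf2bp1, Igf2bp2, Igf2bp3 and Dis3l2 were between -0.13 and 0.05. Without both libraries of ESC replicate 3, Hmga2 at 0.77, Zcchc11 at 0.51 and Trim71 at 0.28 had limma-voom adjusted p-values of 0.00795, 0.00607 and 0.0116, all short of the fold threshold. In that setting Lin28b was at -0.31, Hmga1 at -0.35 and Dis3l2 at -0.10, and Igf2bp1, Igf2bp2 and Igf2bp3 were between -0.01 and 0.08.

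The deviation of ESC replicate 3 was itself large for the Lin28 genes. Against the mean of ESC replicates 1 and 2, Lin28a in replicate 3 was at 0.308-fold in 4sU RNA and 0.345-fold in total RNA, with only 1.22% and 1.19% of genes further down. Lin28b was at 0.559-fold and 0.657-fold, and Hmga1 at 0.707-fold in both assays. Hmga2 went the other way, at 1.59-fold in 4sU RNA and 3.14-fold in total RNA. The other 6 genes were between 0.782-fold and 1.35-fold in both assays. For Lin28a and Lin28b the deviation ran against the direction of the EpiLC change, and for Hmga2 it ran with it.

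**Figure D5:**
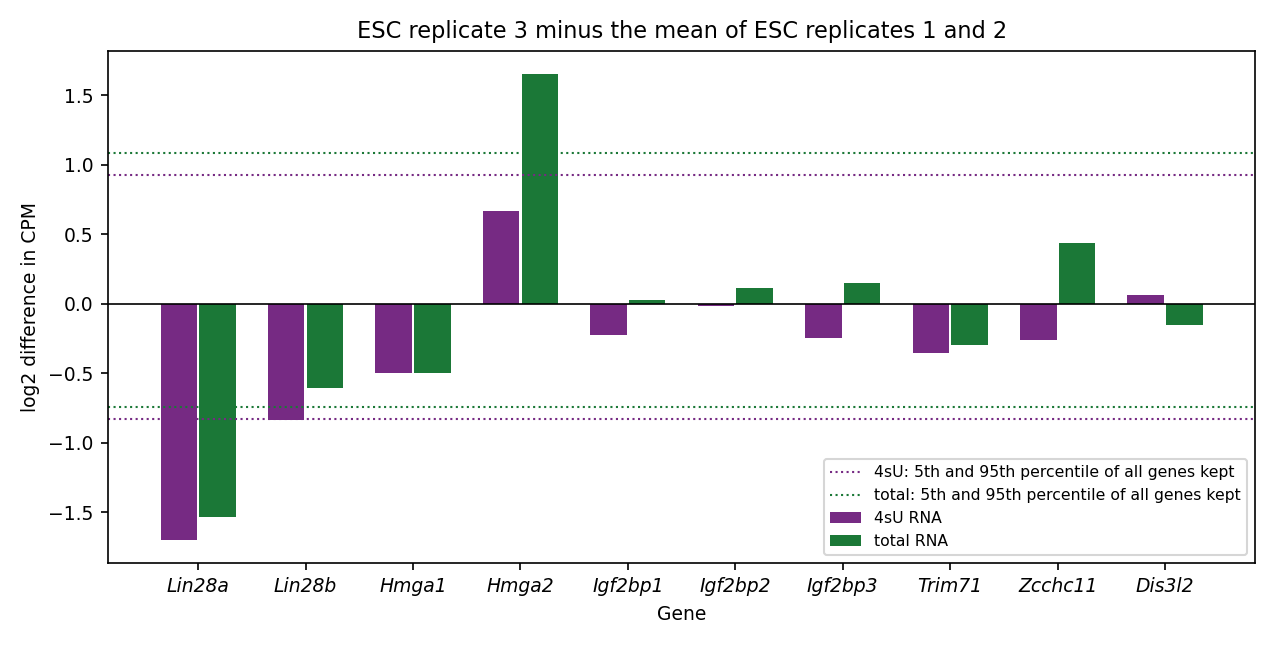
Log2 difference between ESC replicate 3 and the mean of ESC replicates 1 and 2 for each gene, purple bars for 4sU RNA and green bars for total RNA; dotted lines mark the 5th and 95th percentile of that difference over all genes kept. Lin28a lies below the 5th percentile in both assays, and Hmga2 lies above the 95th in total RNA.

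Other genes moved with replicate 3. T, a mesendoderm marker, was at 0 CPM in its 4sU library against 1.84 and 1.07 in the other 2, all low levels. Ccnd2, a cyclin, was at 0.542 CPM there against 4.50 and 3.40. Egr1, an immediate early gene, was at 24.4 CPM in its 4sU library against 714 and 541 in the other 2. Summed naive markers in that replicate, 3817 CPM in 4sU and 2682 in total RNA, were the lowest and the highest of the 3 ESC libraries, within the range given above for total RNA. Their part in the values of the Lin28 genes was not tested.

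The let-7 loci gave few reads. Of 16 listed precursor loci and host genes, 1 (Mirlet7bhg) was not matched and 5 were kept, and 5 hairpin loci had 0 reads in all 12 libraries. Such 0s allow up to 3 reads a library, for counting error only, and reads of 50 bases sample the primary transcript and not mature let-7. Mirlet7e (chr17:17830352-17830444, plus strand) was called higher in EpiLCs, with a log2 change of 1.97 ± 0.56 in total RNA and 2.24 ± 0.42 in 4sU RNA (limma-voom adjusted p = 0.00695 and 0.000449). It rested on 5, 5 and 2 reads in the ESC 4sU libraries and 22, 22 and 10 in the EpiLC ones, with 1 to 4 reads in each total library. The locus met the filter of 3 CPM in 3 libraries only through the EpiLC 4sU libraries, where it was high. Its call in 4sU RNA is therefore partly built in.

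Mirlet7a-1 and Mirlet7f-1 were not called in either assay, and neither were the host genes Wdr82 and Huwe1, which are named here after their values were seen. The log2 change of Wdr82, host of let-7g, was -0.59 in total and -0.73 in 4sU RNA, and that of Huwe1, host of let-7f-2 and miR-98, was 0.55 and 0.38. All 4 values passed by adjusted p alone. Of the 5 kept, hairpin loci and host genes together, 1 was called in each assay, beside 27.6% of all genes in total and 25.5% in 4sU RNA. The median over the 5 was 0.55 in total and 0.38 in 4sU RNA, beside 0.02 and -0.09 over all genes.

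The machinery that processes let-7 was read against the shares over all genes, 27.6% called in total and 25.5% in 4sU RNA. Of 15 other processing factors, Drosha, Dgcr8, Dicer1 and Xpo5 among them, all 15 were kept and 0 were called in total RNA, 4sU RNA or stability. By limma-voom adjusted p alone 4 were higher and 1 lower in total RNA, and 4 were higher and 2 lower in 4sU RNA, where 63.5% and 52.5% of all genes passed in either direction. Their median log2 change was 0.12 in total RNA, beside 0.02 over all genes.

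Other genes known as let-7 targets moved upward more often than down. Of 28 listed, 27 were kept and 9 were called higher in total RNA and 0 lower (33.3% of those kept, beside 16.3% of all genes called higher). In 4sU RNA 10 were called higher and 1 lower, beside 11.9% and 13.5% of all genes. Their median log2 change was 0.79 in total RNA and 0.71 in 4sU RNA, beside 0.02 and -0.09 over all genes. Of the 26 for which a 3′ UTR was searched, 18 held a 7-base seed match, and the median log2 change in total RNA was 0.68 over these 18 and over all 26.

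The largest rises among these targets were those of Thbs1, an extracellular matrix protein, Myc, a growth-promoting transcription factor, and Irs2, an adaptor of insulin receptor signalling. Thbs1 went from 0.35 to 1.38 CPM in ESC total RNA to 229 to 295 in EpiLC total RNA, a log2 change of 8.66 ± 0.48. It met the filter of 3 CPM in 3 libraries only with its EpiLC libraries, so its call is partly built in. Myc rose by 3.33 ± 0.35 in total and 3.33 ± 0.22 in 4sU RNA, and Irs2 by 3.05 ± 0.22 in total RNA. Ccnd2 rose by 2.90 ± 0.83 in 4sU RNA, and by 2.19 without the ESC 4sU library of replicate 3. Thbs1, Ccnd2 and Mycn had no 7-base match in the 3′ UTR searched.

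Hic2, a transcriptional repressor with 4 matches, was called lower in 4sU RNA at -1.16 ± 0.11 (limma-voom adjusted p = 1.36e-06). The 4sU level was 276 to 350.0 CPM in ESCs and 132 to 154 in EpiLCs. Mycn was the one target of the 27 kept that was called in stability, and it was called lower, beside 1.54% of all genes called. By limma-voom adjusted p alone 4 targets were higher and 1 lower, where 4.6% of all genes passed. The 4 higher were short of the fold threshold. The median stability change was 0.15 over the targets and 0.11 over all genes.

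The 5 messenger RNAs known as Trim71 targets had a median log2 change of 0.68 in total and 0.43 in 4sU RNA, beside 0.02 and -0.09 over all genes. E2f7, a repressor of cell cycle genes, was called higher in total RNA at 1.63 ± 0.12 and in 4sU RNA at 1.15 ± 0.11. Cdkn1a, the cell cycle inhibitor p21, was called lower in total RNA at -1.02 ± 0.20 (limma-voom adjusted p = 0.000488), and its call was lost in 5 of the alternatives. It was at -0.89 without both ESC replicate 3 libraries or the total one alone, at -0.94 without the EpiLC total library of replicate 2 or with sample quality weights, and at -0.93 with library totals alone. Egr1 was called higher in 4sU RNA at 2.56 ± 0.82 (limma-voom adjusted p = 0.017) but not with edgeR (adjusted p = 0.0563) or DESeq2 (adjusted p = 0.141). Its change was 1.08 without the ESC 4sU library of replicate 3, 3.33 without that of replicate 1 and 3.20 without that of replicate 2, and without the EpiLC 4sU library of replicate 1 the limma-voom adjusted p was 0.0617.

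Igf2, the growth factor whose messenger RNA gave the Igf2bp family its name, was called higher in both assays, by 2.63 ± 0.28 in total and 1.62 ± 0.36 in 4sU RNA. H19, the non-coding RNA of the same imprinted locus, rose by 4.32 ± 0.28 and 3.73 ± 0.66. Igf2r was not called in either assay. Igf2 was low throughout, at 1.45 to 2.75 CPM in ESC total RNA and 8.91 to 15.5 in EpiLC total RNA. It met the filter of 3 CPM in 3 libraries only with its EpiLC libraries, where it was high. Its calls are therefore partly built in.

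The genes whose pattern was most like that of the 3 called members were found by Pearson's r of log2 CPM over the 12 libraries, among the 10201 genes averaging 10 CPM or more. For Lin28a they were Sh3bgrl (0.987), Impact (0.987) and Sulf1 (0.983). For Lin28b they were Mpdz (0.994), Igsf9 (0.994) and Dpysl2 (0.990). For Hmga2 they were Sema6a (0.982), Lpp (0.981) and Sos2 (0.979). Lin28a and Lin28b correlated with each other at 0.965, and with Hmga1 at 0.978 and 0.953. All points share libraries and fall in 4 groups, so these coefficients mostly describe the differences between groups.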

How the data were processed

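RNA from ESCs and EpiLCs was sequenced as 4sU-captured and as total RNA, 3 libraries each, with single-end reads of 50 bases. The authors trimmed reads with cutadapt 1.14, aligned them to mm10 with STAR 2.5.3a keeping unique alignments only, and counted them per gene and strand with featureCounts 1.5.3 against GENCODE M14 without ribosomal RNA genes. The deposited values are raw read counts per gene, and reads shared by near copies of a gene are therefore missing. The 92 spike-in entries held 0 reads and were left out.

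Counts were scaled by TMM (edgeR 4.0.16) and fitted with limma-voom (limma 3.58.1, R 4.3.3) over all 12 libraries as group means, for the 14731 genes that reached 3 CPM in 3 or more libraries. Calls needed a Benjamini-Hochberg adjusted p under 0.05 over all genes and an absolute log2 fold change over 1. The mRNA, nascent and stability changes were contrasts of that fit, and intervals are 95% intervals. Spread is the SD, or the SE of the fit. Without use of the spike-ins, all levels are relative. The fitting scripts were tested on simulated data. Total reads per library bound the precision of low genes such as Hmga2 in ESCs (81 to 94 reads in 4sU libraries). Of the 10 genes, Lin28a had the largest SE of the mRNA, nascent and stability changes, at 0.35, 0.42 and 0.54. Those of Hmga2 were 0.27, 0.32 and 0.42.

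Alternatives were other scalings, no expression filter, sample quality weights, replicate blocks, left-out libraries, and the tests of DESeq2 1.42.0 and edgeR (quasi-likelihood). Whether replicate numbers pair libraries was checked by the correlation of their deviations from group means. The 10 genes, the other lists and the tests were chosen with earlier results of these data known. All 10 were named, with up to 3 called genes in each direction per list and comparison. Single marker genes, Wdr82 and Huwe1 were named after their values were seen. Symbols came from GENCODE M21, which matched 51274 of 51467 gene identifiers. 3′ UTRs were read from M21 transcripts and microRNAs from RefSeq.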

Additional observations from a re-analysis of the deposited data

Results flagged for a closer look

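Mycn, a growth-promoting transcription factor and a known let-7 target, was singled out because its mRNA change and its nascent change differed by a test of the difference itself. Its 4sU level rose from 152, 168 and 137 CPM in ESCs to 349, 327 and 356 in EpiLCs, without overlap, a log2 change of 1.17 (limma-voom adjusted p = 2.22e-07). In total RNA it was at 78.0, 87.6 and 95.2 CPM in ESCs and 89.3, 93.8 and 101 in EpiLCs, which overlapped, with a log2 change of 0.13 (limma-voom adjusted p = 0.233). The stability change was -1.04 ± 0.13 (limma-voom adjusted p = 0.00154), in a direction called for 0.305% of all genes. Over the alternatives it lay between -1.19 and -0.91, and its size was under the fold threshold when both ESC replicate 3 libraries were dropped (-0.91), when only the 4sU (-0.97) or only the total one (-0.98) was, with library totals alone (-0.98) and with sample quality weights (-0.91). The 3′ UTR searched, of 913 bases, held 0 seed matches.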

How the results depend on the processing

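The members called higher in total and 4sU RNA, 3 in each, stayed 3 in each under other scalings, no filter, edgeR, DESeq2 and quality weights. In 4sU RNA 4 were called, Hmga1 in addition, without the ESC or the EpiLC 4sU library of replicate 2. By adjusted p alone, 8 were higher and 2 lower in total RNA, and 7 higher and 2 lower in 4sU RNA. In stability, 1 gene, Lin28a, was called lower with sample quality weights, and 0 to 1 when single libraries were left out. Small stability changes turned sign. Igf2bp2 was at -0.040 with DESeq2 size factors, -0.010 with TMM within each assay, -0.055 without a filter and -0.047 with DESeq2, and from -0.035 to 0.155 with single libraries left out. Igf2bp1 was at 0.0079 with library totals, 0.000896 with quality weights and 0.023 without both ESC replicate 3 libraries, and from -0.114 to 0.015 with single libraries left out. Dis3l2 was at 0.031 with library totals and from -0.135 to 0.057. The nascent change of Trim71 was -0.00473 with quality weights, -0.046 without both ESC replicate 3 libraries and from -0.046 to 0.133. The cause was not tested.

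Leaving out single libraries moved the mRNA change of Lin28a between 1.31 and 2.08 and its stability change between -1.43 and -0.46. Over all genes, 182 stability changes were called higher and 45 lower, against 738 and 108 with quality weights and 672 and 113 without both ESC replicate 3 libraries. Another scaling moved the median stability change of all genes from 0.11 to between 0.03 and 0.18. Relative stability within a cell type depended on the processing as well. Over the 10 genes and 2 cell types, 38 of 60 alternative values moved and 22 stayed the same.

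The labels say that each labelled sample was divided between the assays, but not that equal numbers mark the division. Deviations of same-numbered 4sU and total libraries correlated at 0.174 to 0.409 in ESCs and at 0.0194 to 0.0714 in EpiLCs. The ESC 4sU library of replicate 2 correlated at 0.3 with total replicate 2 and at 0.296 with total replicate 1. Pairing within a cell type is thus likely from the labels, and the correlations show it clearly only for ESC replicate 3. Across cell types same numbers share only a number. With the number as a replicate block, Lin28a stability was -0.91 (limma-voom adjusted p = 0.191), and 281 genes were called higher and 73 lower. A random replicate block by culture gave -0.96 (0.165) and 405 and 80. A fixed one, chosen after seeing the data, gave -0.96 (0.000595) and 438 and 90. No replicate block changed the count of members called.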

Other observations

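Over the 12154 coding genes kept with a 3′ UTR, relative mRNA stability was lower where the 3′ UTR held more let-7 seed matches, in both cell types. The median log2 of total over 4sU CPM in ESCs was 0.36 for the 10947 genes with no 7-base match, 0.09 for the 1207 with at least 1 and -0.78 for the 25 with at least 3. In EpiLCs these medians were 0.42, 0.19 and -0.18. The median 3′ UTR length rose alongside, from 965 bases to 2318 and 4466, and its part in the medians was not tested. The median over the 8 members with a match was 0.64 in ESCs and 0.54 in EpiLCs, above the median of genes with no match. The medians are descriptions over genes that share libraries, without a test.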
